A study of Homo sapiens with 6 samples.

Results

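The genes described are 10 cytokine and chemokine genes of the inflamed epidermis: *IL1A*, *IL1B*, *IL1RN*, *IL18*, *IL6*, *CXCL1*, *CXCL2*, *CXCL8*, *CXCL16* and *CCL20*. They were found by symbol, and 9 of the 10 had a row among the 12499 genes of the count table. *CXCL2* had no row, so its expression was not analyzed here, and it enters only the search for sequence matches below. The RNA came from HaCaT cells, an established line of spontaneously immortalized human keratinocytes, infected for 48 hours with lentivirus. By their labels, 3 libraries are from cells given lentivirus with the human *ATF7* coding sequence (LV-*ATF7*) and 3 from cells given the control lentivirus (LV-NC), but *ATF7* mRNA was lower in the libraries labeled LV-*ATF7*. Both groups were kept for 24 hours in medium with 25 mM glucose, so neither group shows the genes at ordinary glucose. The comparison asks how the transcriptome differs with *ATF7*, a transcription factor of the ATF/CREB family, under high glucose.

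Keratinocytes are the barrier cells of the skin and keep the cytokine IL-1α ready inside the cell, so that injury releases it. IL-1α and IL-1β act on the same receptor, the receptor antagonist encoded by *IL1RN* occupies that receptor without signaling, and the signal runs through MYD88 to NF-κB and AP-1, which drive further cytokine and chemokine genes. CXCL1, CXCL2 and CXCL8 recruit neutrophils, CXCL16 and CCL20 attract lymphocytes, and IL-6 acts through its own receptor and STAT3.

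In the libraries labeled LV-*ATF7*, 8 of the 9 genes were higher than in those labeled LV-NC and *IL6* was lower. The rises ran from 1.77-fold for *CXCL16* to 22.9-fold for *CXCL1*. All 9 passed the test across genes (edgeR, adjusted p below 0.05), against 67.6% of all 12462 genes tested, of which 34.7% were higher and 32.9% lower. With a fold change of at least 1.5 also required, all 9 remained called, against 52.9% of genes tested. The median log2 fold change was 1.94 over the 9 genes and 0.00 over all genes tested.

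Sequence upstream of 4 members was taken from RefSeq (GRCh38.p14, plus strand, 200 bases ending at the base before the RefSeq start). Gene positions given below are from GENCODE 29, and of these genes only *CXCL1* has the same start there. The stretches of *CCL20* and *IL6* lie inside the GENCODE gene span, and that of *CXCL8* runs past its GENCODE start. *CXCL1*, *CCL20* and *IL6* are shown because one rose most, one rose from the lowest level and one fell, and each holds a match to the kappa B consensus, the letters that NF-κB prefers. *CXCL8* is shown for its match to the AP-1 letters TGACTCA. The capitals mark these matches.
*CXCL1* (chr4:73869193-73869392): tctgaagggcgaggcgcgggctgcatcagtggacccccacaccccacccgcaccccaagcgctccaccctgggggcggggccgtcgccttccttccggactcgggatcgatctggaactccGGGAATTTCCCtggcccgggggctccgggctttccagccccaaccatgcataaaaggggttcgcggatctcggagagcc
*CCL20* (chr2:227813642-227813841): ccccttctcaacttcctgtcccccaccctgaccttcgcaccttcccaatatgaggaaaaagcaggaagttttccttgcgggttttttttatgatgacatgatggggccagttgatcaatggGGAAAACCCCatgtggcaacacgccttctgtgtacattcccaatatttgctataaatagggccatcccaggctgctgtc
*IL6* (chr7:22727000-22727199): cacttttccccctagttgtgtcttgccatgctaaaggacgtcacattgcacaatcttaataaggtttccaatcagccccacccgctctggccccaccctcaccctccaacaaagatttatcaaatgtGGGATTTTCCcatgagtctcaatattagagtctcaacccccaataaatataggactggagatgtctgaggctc
*CXCL8* (chr4:73740369-73740568): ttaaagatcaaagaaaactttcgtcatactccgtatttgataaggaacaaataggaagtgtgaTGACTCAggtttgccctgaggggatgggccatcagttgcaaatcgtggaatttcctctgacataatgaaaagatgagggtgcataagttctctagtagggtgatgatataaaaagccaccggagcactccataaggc
The kappa B matches began 79 bases before the start in *CXCL1* and *CCL20* and 73 bases before it in *IL6*, and the AP-1 match in *CXCL8* began 137 bases before it. In *CXCL1* the match was read on both strands, shifted by 1 base. In windows of 250 bases before to 50 after the start, found for 8 of the 10 members (not for *IL18* and *CXCL16*) and searched on both strands, the kappa B consensus was present for 4 of 8 members (*IL6*, *CXCL1*, *CXCL2* and *CCL20*), against 13.3% of 27305 genes with a window. TGACTCA was present for 3 of 8 (*IL1A*, *IL1RN* and *CXCL8*), against 6.05% of genes. The full cAMP response element TGACGTCA, which ATF/CREB proteins can bind, was present for 0 of 8, against 2.25% of genes, and its shorter form TGACG, which the full element contains, was present for 4 of 8 (*IL1A*, *IL6*, *CXCL2* and *CXCL8*), against 28.4%. These matches describe letters in a window and were not measured as binding sites. The rising *CXCL1* and the falling *IL6* thus held the same consensus.

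The libraries held 16686472 to 18287923 counts in LV-NC and 18666696 to 20562768 in LV-*ATF7*, and expression is given as CPM, the counts of a gene scaled to a fixed library total, after TMM scaling. *ATF7* itself went against the labels, at 50.6, 46.4 and 52.2 CPM in LV-NC and 21.9, 25.7 and 28.0 CPM in LV-*ATF7* (log2 fold change -0.98, SE 0.12, adjusted p = 1.89e-04), and the groups are therefore named here as labeled. The study describes LV-*ATF7* as an overexpression vector. Whether labels or columns were exchanged between the groups was not tested, and an exchange would reverse every direction given here, so that *IL6* would be the member that is higher with the *ATF7* vector and the other 8 would be lower. Of the exon bases of *ATF7*, 18.2% are shared with another gene on the same strand. A further overlap, of 25.6% and 1.52%, is with antisense genes on the opposite strand. As the strandedness of the counting is not given in the sources used here, reads from these genes could not be told apart. LV-NC replicate 1 stood apart, correlating with the other LV-NC libraries at 0.967 and 0.968 across genes, whereas the other two LV-NC libraries correlated at 0.994 and LV-*ATF7* libraries at 0.993 to 0.995. Keratinocyte markers all had a row, 15 of 15, but the line's basal keratin genes were uneven: *KRT5* was higher in LV-*ATF7* by 3.65 on the log2 scale, and *KRT14* had 7, 239 and 195 counts in LV-NC and 26, 27 and 33 in LV-*ATF7*. The summed keratinocyte markers ran from 2439 to 4081 CPM in LV-NC and from 8386 to 9227 CPM in LV-*ATF7*. This sum does not describe every marker, as 8 were higher, 2 were lower and 5 did not pass the test. The 66.7% called was near the 67.6% of all genes tested. *KRT5* alone went from 266 ± 144 to 3354 ± 233 CPM, and *EPCAM* fell from 298 ± 35.6 to 181 ± 7.22 CPM (SD, n = 3). Leukocyte markers ran from 5.57 to 8.13 CPM and from 9.38 to 12.7 CPM with 3 of 11 markers having a row and the defining marker *PTPRC* having none, and fibroblast markers ran from 35.1 to 42.7 CPM and from 17.4 to 21.8 CPM with 3 of 9 having a row. Members of these lists went both ways: mean CPM in LV-NC and LV-*ATF7* was 1.61 ± 0.113 and 8.17 ± 1.27 for *CD14*, 2.79 ± 0.561 and 0.611 ± 0.164 for *CSF1R*, 36.7 ± 4.03 and 16.8 ± 1.93 for *COL1A1* and 0.553 ± 0.958 and 2.67 ± 0.436 for *DCN* (SD, n = 3), and *ITGAM* and *THY1* overlapped between the groups. The part of these marker differences in the results below was not tested. In bulk RNA, fewer cells of a type and less RNA per cell cannot be told apart. The labels do not say that the libraries came from separate cultures, so the p-values measure the spread between these libraries, which may be technical.

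**Figure D1:**
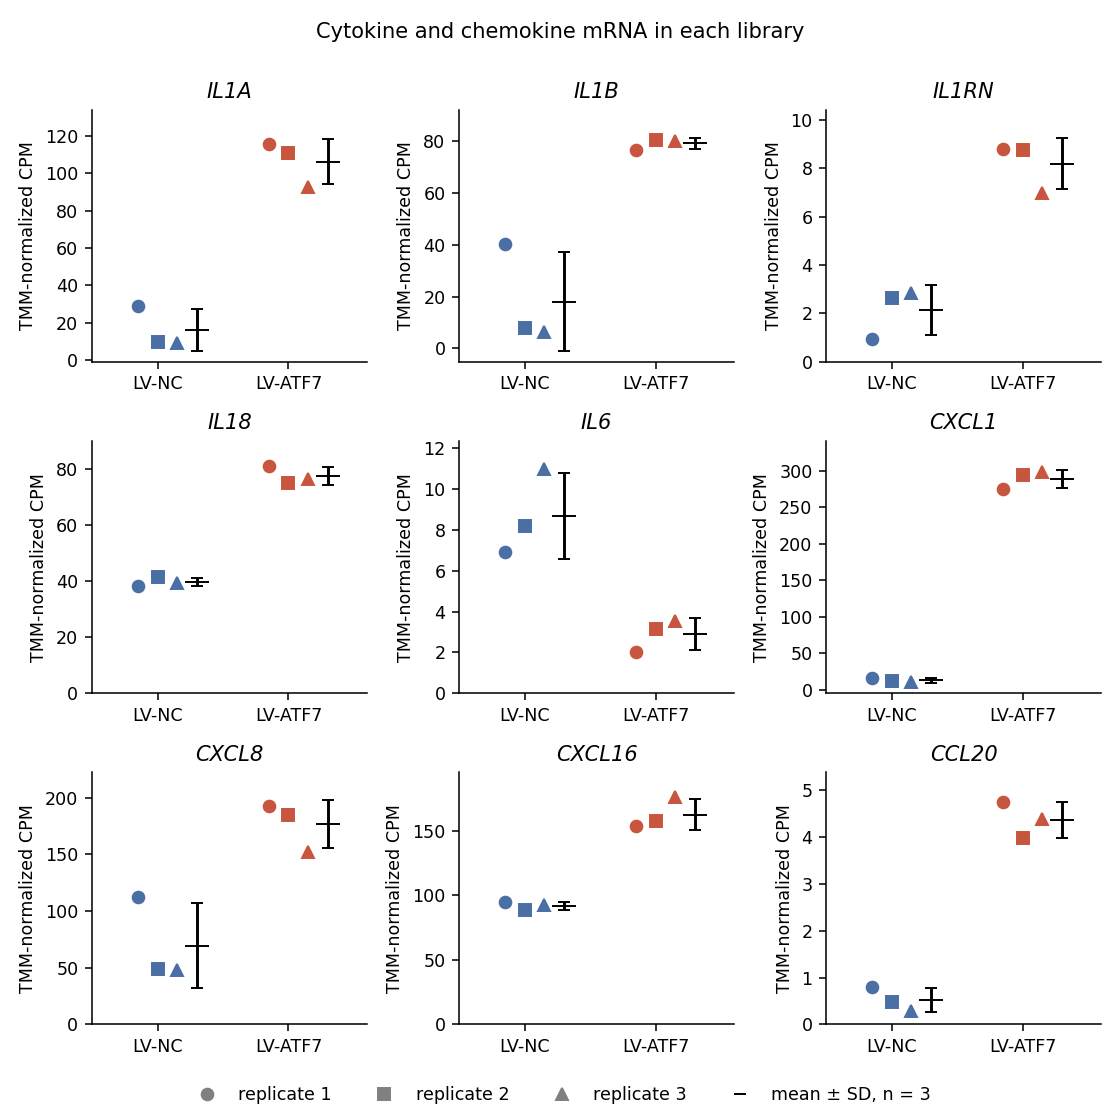
TMM-normalized CPM (y axis, linear, 1 panel per gene) in each LV-NC (blue) and LV-*ATF7* (red) library, with marker shape giving the replicate number and the bar the mean ± SD of 3 libraries. In every panel the groups do not overlap, *IL6* is the gene with LV-*ATF7* below, and LV-NC replicate 1 lies far above the other LV-NC libraries for *IL1A*, *IL1B* and *CXCL8*.

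Both agonist genes of the IL-1 receptor were higher in LV-*ATF7*. *IL1A* (ENSG00000115008, chr2:112773915-112784590, minus strand, GRCh38, positions here and below from GENCODE 29), which encodes IL-1α, was at 28.9, 9.91 and 9.03 CPM in LV-NC and 115, 111 and 92.5 CPM in LV-*ATF7*. Every LV-*ATF7* library lay above every LV-NC library, and LV-NC replicate 1 was the highest of its group, at 3.05 times the mean of the other LV-NC libraries. The mean went from 15.9 ± 11.2 to 106 ± 12.2 CPM (SD, n = 3), a 6.66-fold difference (log2 fold change 2.74, SE 0.42, adjusted p = 6.26e-04). Without LV-NC replicate 1 the log2 fold change was 3.47.

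*IL1B* (ENSG00000125538, chr2:112829751-112836903, minus strand), which encodes IL-1β and lies 45.2 kb from *IL1A*, was at 40.2, 7.81 and 6.19 CPM in LV-NC and 76.8, 80.5 and 80.2 CPM in LV-*ATF7*. The LV-*ATF7* libraries were close together while LV-NC replicate 1 was 5.73 times the mean of the other LV-NC libraries, so that the groups were separate but the LV-NC spread was wide. On average it went from 18.1 ± 19.2 to 79.1 ± 2.07 CPM (SD, n = 3), with a log2 fold change of 2.13 (SE 0.63, adjusted p = 0.0163). The size of the difference rested on LV-NC replicate 1: the LV-*ATF7* mean was 1.97 times that library and 11.3 times the mean of the other LV-NC libraries, and without it the log2 fold change was 3.47. The *IL1B* call was lost when LV-*ATF7* replicate 3 was left out, with an adjusted p of 0.0586 and a log2 fold change of 2.12.

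*IL1RN* (ENSG00000136689, chr2:113107214-113134016, plus strand), the receptor antagonist gene, lies 270 kb from *IL1B* and was low throughout, at 18, 50 and 49 counts in LV-NC and 158, 172 and 126 counts in LV-*ATF7*. These counts were 0.964, 2.62 and 2.84 CPM and 8.82, 8.77 and 6.97 CPM, with no overlap. LV-NC replicate 1, the highest of its group for both agonists, was the lowest for the antagonist. The mean went from 2.14 ± 1.02 to 8.18 ± 1.05 CPM (SD, n = 3), with a log2 fold change of 1.94 (SE 0.35, adjusted p = 0.00142), and of 1.57 without LV-NC replicate 1.

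Set against the agonists within each library, *IL1RN* had 1.40, 14.8 and 18.6 counts per 100 counts of *IL1A* plus *IL1B* in LV-NC and 4.59, 4.58 and 4.03 in LV-*ATF7*. The LV-*ATF7* libraries were close to each other and lay between LV-NC replicate 1 and the other LV-NC libraries, so the groups overlapped. The log2 ratio was -3.74 ± 2.04 in LV-NC and -4.50 ± 0.105 in LV-*ATF7* (SD, n = 3), a difference of -0.76 that did not pass a 2-sided exact permutation test (p = 0.40, where 0.10 is the smallest p that 3 libraries against 3 allow). Without LV-NC replicate 1 the difference was -1.93.

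*IL18* (ENSG00000150782, chr11:112143251-112164117, minus strand) encodes IL-18, an IL-1 family cytokine that, like IL-1β, is made as a precursor and cut by caspase-1. It was at 38.3, 41.4 and 39.4 CPM in LV-NC and 81.3, 75.1 and 76.4 CPM in LV-*ATF7*. Libraries of each group were close to each other, LV-NC replicate 1 included, and the groups were well apart. Mean expression went from 39.7 ± 1.57 to 77.6 ± 3.26 CPM (SD, n = 3), a 1.95-fold difference (log2 fold change 0.97, SE 0.090, adjusted p = 4.50e-05).

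Per kb of exon, *IL18* made up 35.2% of the summed level of *IL1A*, *IL1B*, *IL1RN* and *IL18* in LV-NC replicate 1, 66.3% in replicate 2 and 67.8% in replicate 3, and 27.4%, 26.1% and 28.9% in the LV-*ATF7* libraries. *IL1A* made up 32.8%, 19.6% and 19.2% in LV-NC and 48.2%, 47.7% and 43.3% in LV-*ATF7*, the largest of the 4 shares in every LV-*ATF7* library. *IL1RN* did not exceed 3.94% of the sum in any library. The order of the IL-1 genes thus differed between the groups as labeled, with LV-NC replicate 1 between the other LV-NC libraries and LV-*ATF7* in its *IL1A* and *IL18* shares.

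**Figure D2:**
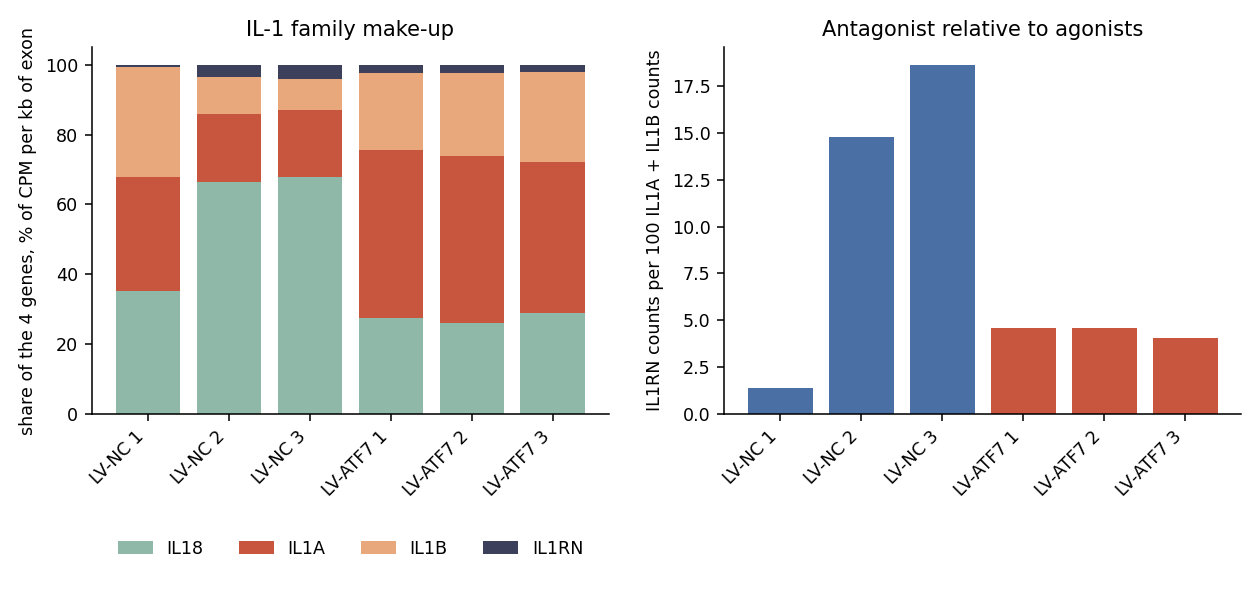
Left, the share (percent of CPM per kb of exon) of *IL18*, *IL1A*, *IL1B* and *IL1RN* in their sum in each library. Right, *IL1RN* counts per 100 counts of *IL1A* plus *IL1B* in each library, LV-NC in blue and LV-*ATF7* in red, with LV-NC replicate 1 at 1.40 and the other LV-NC libraries at 14.8 and 18.6, on either side of LV-*ATF7* at 4.03 to 4.59.

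*IL6* was the member that was lower in the libraries labeled LV-*ATF7*. The gene (ENSG00000136244, chr7:22725884-22732002, plus strand), which encodes a cytokine that signals through STAT3, had 129, 156 and 190 counts in LV-NC and 36, 62 and 64 counts in LV-*ATF7*. On the CPM scale these were 6.91, 8.18 and 11.0 against 2.01, 3.16 and 3.54, and every LV-*ATF7* library lay below every LV-NC library. Its mean fell from 8.69 ± 2.09 to 2.90 ± 0.797 CPM (SD, n = 3), 2.98-fold higher in LV-NC (log2 fold change -1.58, SE 0.27, adjusted p = 0.00104). The difference was -1.73 without LV-NC replicate 1. Of the exon bases of *IL6*, 20.7% are shared with an antisense gene and 2.22% with *STEAP1B* on the opposite strand, and since the strandedness of the counting is not given in the sources used here, reads from these partners could not be told apart.

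Of the neutrophil chemokines, *CXCL1* changed most. *CXCL1* (ENSG00000163739, chr4:73869393-73871242, plus strand), a ligand of CXCR2, was at 16.0, 11.2 and 10.7 CPM in LV-NC and 275, 294 and 297 CPM in LV-*ATF7*. The lowest LV-*ATF7* library was far above the highest LV-NC library. Mean expression rose from 12.6 ± 2.96 to 289 ± 12.2 CPM (SD, n = 3), a 22.9-fold difference (log2 fold change 4.52, SE 0.17, adjusted p = 1.16e-06), and 1.44% of the genes tested had a larger log2 fold change in either direction. *CXCL1* is closely related in sequence to *CXCL2* and *CXCL3*, so reads could be split or lost between them. *CXCL3* had 15.9, 14.0 and 11.8 CPM in LV-NC and 60.4, 67.1 and 67.7 CPM in LV-*ATF7*, with a log2 fold change of 2.23 (SE 0.13, adjusted p = 6.13e-06). *CXCL1* held 50.2%, 44.3% and 47.5% of the counts of *CXCL1* plus *CXCL3* in LV-NC and 82.0%, 81.4% and 81.5% in LV-*ATF7*, and the sum of both genes differed by 3.74 on the log2 scale.

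*CXCL8* (ENSG00000169429, chr4:73740506-73743716, plus strand), which encodes IL-8 and lies 126 kb from *CXCL1*, was already abundant in LV-NC, at 113, 48.6 and 47.6 CPM, and was at 193, 185 and 153 CPM in LV-*ATF7*. LV-NC replicate 1 was 2.34 times the mean of the other LV-NC libraries and still below every LV-*ATF7* library. The mean went from 69.6 ± 37.2 to 177 ± 21.1 CPM (SD, n = 3), a 2.54-fold difference (log2 fold change 1.34, SE 0.32, adjusted p = 0.00634), and the log2 fold change was 1.86 without LV-NC replicate 1. Per kb of exon, *CXCL8* was above *CXCL1* in LV-NC, by 4.01, 2.48 and 2.55 times, and *CXCL1* was above *CXCL8* in LV-*ATF7*, by 2.50, 2.79 and 3.42 times. This pair was compared after its values were seen.

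*CXCL16* (ENSG00000161921, chr17:4733526-4739922, minus strand) encodes a chemokine that is anchored in the membrane and shed by ADAM10, and that binds CXCR6 on T cells. It was at 94.8, 88.4 and 92.3 CPM in LV-NC and 154, 158 and 177 CPM in LV-*ATF7*. LV-NC replicate 1 lay with the rest of its group, and the groups were separate. Its mean was 91.8 ± 3.19 CPM in LV-NC and 163 ± 12.2 CPM in LV-*ATF7* (SD, n = 3), the smallest difference of the 9 genes at 1.77-fold (log2 fold change 0.83, SE 0.092, adjusted p = 1.14e-04). It shares 3.04% of its exon bases with *MED11* on the opposite strand.

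*CCL20* (ENSG00000115009, chr2:227805739-227817564, plus strand), the ligand of CCR6 on Th17 cells and dendritic cells, was the least abundant chemokine, with 15, 9 and 5 counts in LV-NC and 85, 78 and 79 counts in LV-*ATF7*. In CPM these were 0.803, 0.472 and 0.289 against 4.74, 3.98 and 4.37, with no overlap. Mean expression went from 0.521 ± 0.260 to 4.36 ± 0.384 CPM (SD, n = 3), with a log2 fold change of 3.04 (SE 0.33, adjusted p = 9.56e-05). The LV-NC level rests on at most 15 counts per library, the lowest counts of the 9 genes.

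All 9 genes had groups that did not overlap, as did 72.7% of all genes tested (38% with LV-*ATF7* above LV-NC and 34.7% with it below). LV-NC replicate 1 was the highest LV-NC library for 6 of the 9 (*IL1A*, *IL1B*, *CXCL1*, *CXCL8*, *CXCL16* and *CCL20*) and the lowest for the other 3 (*IL1RN*, *IL18* and *IL6*). With that library left out all 9 calls held, and the log2 fold changes of *IL1A*, *IL1B* and *CCL20* came out at 3.47, 3.47 and 3.46. More genes were called in that setting over the whole table, 10011 against 8429 with every library.

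**Figure D3:**
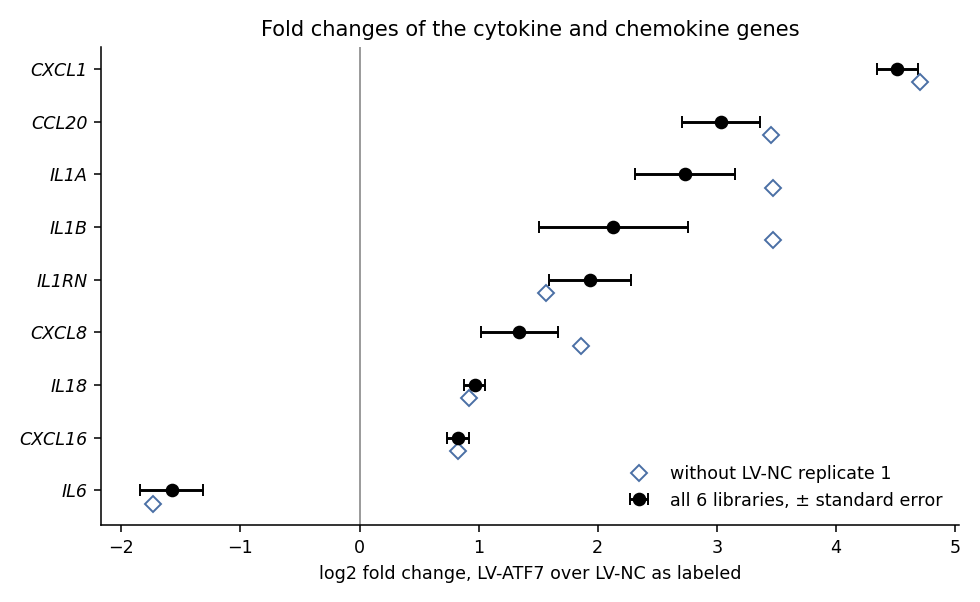
Log2 fold change (x axis) of LV-*ATF7* over LV-NC as labeled for each gene (y axis), as filled points with bars of ± 1 standard error from all 6 libraries and as open diamonds without LV-NC replicate 1. The points run from -1.58 for *IL6* to 4.52 for *CXCL1*, and the diamonds stand farthest from the points for *IL1B* and *IL1A*.

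Levels of different genes were compared as CPM per kb of exon. In LV-NC the order was *CXCL16* (32.9 ± 1.14), *CXCL8* (30.6 ± 16.4), *IL18* (15.1 ± 0.596), *CXCL1* (9.73 ± 2.28), *IL1A* (7.50 ± 5.27), *IL1B* (5.83 ± 6.19), *IL6* (4.20 ± 1.01), *IL1RN* (0.657 ± 0.315) and *CCL20* (0.327 ± 0.163; SD, n = 3). Neighbors overlapped between libraries for *CXCL16* and *CXCL8*, for *CXCL1*, *IL1A*, *IL1B* and *IL6* in turn, and for *IL1RN* and *CCL20*. In LV-*ATF7* the order was *CXCL1* (223 ± 9.39), *CXCL8* (77.6 ± 9.30), *CXCL16* (58.3 ± 4.35), *IL1A* (50.1 ± 5.73), *IL18* (29.5 ± 1.24), *IL1B* (25.6 ± 0.670), *CCL20* (2.74 ± 0.241), *IL1RN* (2.51 ± 0.324) and *IL6* (1.40 ± 0.385), and there *CCL20* and *IL1RN* were the only neighbors that overlapped. *CXCL1* led in LV-*ATF7* but not in LV-NC, and *IL6* was last in LV-*ATF7* but not in LV-NC.

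Genes with the most similar pattern over the 6 libraries were sought by Pearson's r of log2 CPM, as a description. For *CXCL1* these were *ANK1*, *SLC11A2* and *TMPRSS4*, each at 0.9998, but 810 of 11175 genes reached 0.99 or more. The 6 points share the contrast between the groups. For *IL6* they were *NDUFA2* (0.997), *MICAL2* (0.994) and *SP6* (0.993), and 6 of 11175 genes reached 0.99.

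The other IL-1 family ligands had 1 row among 7 genes. *IL36RN*, the antagonist of the IL-36 receptor, went from 0.474 ± 0.226 to 6.07 ± 0.600 CPM (SD, n = 3), with a log2 fold change of 3.66 (SE 0.33, adjusted p = 3.67e-05). It was thus an antagonist gene that had a row, as *IL1RN* did, while the IL-36 agonists *IL36A*, *IL36B* and *IL36G* had no row. Lack of a row does not show that a gene was absent, as no listed gene had under 51 counts over the 6 libraries.

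Among the receptors and adaptors of IL-1 and IL-18, 15 of 20 genes had a row, and 8 were higher, 3 were lower and 4 did not pass the test, with a median log2 fold change of 0.39. The share called was 73.3%, near the 67.6% of all genes tested. Levels in this and the following lists are means ± SD of 3 libraries. *IL18R1*, the ligand-binding chain of the IL-18 receptor, rose from 1.07 ± 0.304 to 4.63 ± 0.475 CPM (log2 fold change 2.10, adjusted p = 1.81e-04). *SIGIRR*, which dampens IL-1 receptor signaling, rose from 42.8 ± 0.187 to 71.4 ± 4.55 CPM (log2 fold change 0.74, adjusted p = 1.94e-04), and *MYD88*, the shared adaptor, rose from 36.2 ± 0.406 to 58.1 ± 4.79 CPM (0.68, adjusted p = 4.07e-04). The signaling receptor gene *IL1R1* was higher, with a log2 fold change of 0.47 (adjusted p = 0.0147), a call lost without LV-NC replicate 2 or 3 or LV-*ATF7* replicate 1 or 2 (adjusted p 0.0509 to 0.0753) and with scaling by library size alone (0.0897). The genes that fell were the inhibitor *TOLLIP* (143 to 80.6 CPM, log2 fold change -0.83), the co-receptor *IL1RAP* (163 ± 19.8 to 114 ± 12.3 CPM, -0.51) and the kinase *IRAK4* (26.2 ± 3.11 to 19.8 ± 0.645 CPM, -0.40, adjusted p = 0.0223), the last with its call lost without LV-NC replicate 3 or any 1 LV-*ATF7* library (adjusted p 0.0576 to 0.0772). The list therefore held activating and inhibitory components among both its risers and its fallers. Without LV-*ATF7* replicate 2 the count called fell from 11 to 7, and over all genes from 8429 to 7290.

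In the IL-6 family and its signal transducers, 14 of 15 genes had a row. Of these, 4 were higher, 8 were lower and 2 did not pass, with a median log2 fold change of -0.44. That is 85.7% called, against 67.6% of all genes tested. *IL6R*, the receptor for the member that fell, went down as well, from 34.1 ± 3.53 to 7.54 ± 0.50 CPM (log2 fold change -2.17, adjusted p = 6.97e-06). *JAK2*, a kinase of this pathway, fell from 22.2 ± 5.73 to 7.77 ± 1.24 CPM (-1.51, adjusted p = 4.17e-04), and *SOCS3*, a STAT3 target that limits the signal, fell from 112 ± 11.6 to 49.4 ± 3.86 CPM (-1.18, adjusted p = 5.16e-05). *STAT3* and the shared receptor chain *IL6ST* were also lower, by -0.48 and -0.57 on the log2 scale. The genes that rose most were the cytokines *CLCF1* (4.75 ± 1.36 to 12 ± 1.02 CPM, log2 fold change 1.34) and *LIF* (32.0 ± 12.6 to 58.9 ± 5.06 CPM, 0.88, adjusted p = 0.0125) and the oncostatin M receptor *OSMR* (171 ± 35.0 to 292 ± 10.1 CPM, 0.77). Of the ligands, *IL6* and *IL11* (log2 fold change -0.71, adjusted p = 0.0139) were thus lower and *CLCF1* and *LIF* higher, with LV-NC replicate 1 at 46.5 CPM the highest of its group for *LIF*. The *LIF* call was lost without LV-NC replicate 3 or LV-*ATF7* replicate 3 (adjusted p = 0.0567 in both), and the *IL11* call without LV-*ATF7* replicate 1 or 3 (0.0514 and 0.0520).

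Other chemokines and their receptors had 11 rows among 28 genes, of which 10 were tested. All 10 were called, 8 higher and 2 lower, against 67.6% of all genes tested, and the median log2 fold change was 3.39. *CCL2*, *CCL17* and *CCL22* had the largest fold changes of the list. *CCL2*, which recruits monocytes, was at 1.55, 1.0 and 0.695 CPM in LV-NC and 161, 173 and 171 CPM in LV-*ATF7* (log2 fold change 7.26, SE 0.22, adjusted p = 7.90e-07). *CCL17* and *CCL22*, both ligands of CCR4, went from 0.255 ± 0.0826 to 20.6 ± 1.06 CPM (6.30, adjusted p = 9.77e-07) and from 1.48 ± 0.687 to 79.7 ± 7.82 CPM (5.75, adjusted p = 2.74e-06). *CCL5* went the other way, with 10, 183 and 175 counts in LV-NC, so that LV-NC replicate 1 stood near the LV-*ATF7* libraries, and a log2 fold change of -4.81 (SE 1.06, adjusted p = 0.00424). *CXCR2*, a receptor of CXCL1 and CXCL8, went from 0.396 ± 0.264 to 3.67 ± 0.347 CPM (SD, n = 3), with a log2 fold change of 3.18 that was 3.80 without LV-NC replicate 2. *CXCR1* went the other way but was not tested, with 6, 48 and 31 counts in LV-NC and 0, 2 and 0 counts in LV-*ATF7*.

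Genes of cytokine processing and release had 15 rows among 18 genes. Of these, 8 were higher, 2 were lower and 5 did not pass, with a median log2 fold change of 0.27. The 66.7% called was near the 67.6% of all genes tested. *CASP1*, which cuts the precursors of IL-1β and IL-18, rose from 7.15 ± 4.0 to 34.9 ± 1.76 CPM (log2 fold change 2.28, adjusted p = 4.62e-04). *PYCARD*, the inflammasome adaptor that recruits it, rose from 2.63 ± 0.344 to 11.7 ± 0.316 CPM (2.15, adjusted p = 1.72e-05), and *CAPN1*, a calpain subunit of the kind that cuts pro-IL-1α, rose from 340 ± 114 to 1090 ± 99.4 CPM (1.68, adjusted p = 4.98e-04). *NLRP1*, an inflammasome sensor of keratinocytes, was lower, with a log2 fold change of -1.47 (adjusted p = 0.00103), and so was *S100A13*, a partner in IL-1α release (-1.05, adjusted p = 0.00480). *ADAM10*, the sheddase of CXCL16, rose by 0.38 (adjusted p = 0.0309), a call lost without LV-NC replicate 2 or 3 or LV-*ATF7* replicate 1 or 2 (adjusted p 0.0507 to 0.115), with the replicate block (0.0531) and with scaling by library size alone (0.146). The count called fell from 10 to 6 without LV-NC replicate 2, LV-NC replicate 3 or LV-*ATF7* replicate 1, and was 8 with the replicate number as a block. Over all genes it also fell in these settings, from 8429 to 7720, 7614, 7382 and 8210 in turn.

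Cytokine and chemokine mRNAs are known for AU-rich elements that make them short-lived, and 17 of 17 turnover factors had a row. Of these, 7 were higher, 4 were lower and 6 did not pass (median log2 fold change 0.18). The 64.7% called was near the 67.6% of all genes tested. *ZFP36L2* and *ZFP36L1*, which bind such elements and promote decay, rose from 56.7 ± 12.8 to 316 ± 8.45 CPM (log2 fold change 2.48, adjusted p = 8.22e-06) and from 192 ± 30.2 to 370 ± 6.09 CPM (0.95, adjusted p = 2.47e-04), and *ZC3H12A*, the endonuclease Regnase-1 that cleaves *IL6* mRNA, rose from 71.4 ± 31.4 to 328 ± 20.8 CPM (2.20, adjusted p = 1.96e-04). *MAPKAPK2*, the kinase that restrains ZFP36, fell from 402 ± 45.7 to 211 ± 21.3 CPM (-0.93), the decapping enzyme gene *DCP2* from 99.8 ± 4.45 to 61.5 ± 6.10 CPM (-0.70) and *ZFP36* from 252 ± 17.8 to 198 ± 14.2 CPM (-0.35, adjusted p = 0.0131). The *ZFP36* call was lost without LV-*ATF7* replicate 1 or 2 (adjusted p = 0.0606 and 0.0653). Whether any of these factors bears on the level of *IL6* or of the members that rose was not tested.

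All 26 transcription factors and regulators of cytokine genes had a row. Of these, 10 were higher, 8 were lower and 8 did not pass, with a median log2 fold change of 0.05. The 69.2% called was near the 67.6% of all genes tested. *CEBPD*, a C/EBP factor of acute inflammation, rose from 30.3 ± 6.27 to 429 ± 33.9 CPM (log2 fold change 3.82, SE 0.16, adjusted p = 1.66e-06), *BCL3*, a nuclear regulator of NF-κB, from 25.3 ± 0.953 to 103 ± 10.8 CPM (2.02, adjusted p = 3.87e-06), and *IRF1*, a factor of interferon responses, from 108 ± 13.7 to 314 ± 22.2 CPM (1.54, adjusted p = 1.84e-05). The NF-κB subunit genes *RELA* and *NFKB1* rose by 0.40 and 0.34 on the log2 scale (adjusted p = 0.00802 and 0.00691, but 0.0629 and 0.0816 with scaling by library size alone), and *NFKBIA*, an NF-κB target that encodes its inhibitor, rose by 1.23. The NF-κB genes did not all rise. *NFKBIE* and *NFKBIB* were lower (-1.07 and -0.71, adjusted p = 1.04e-04 and 6.08e-04), and *NFKBIZ* was higher (1.10, adjusted p = 0.00107). The subunit genes *NFKB2* (-0.33), *RELB* (-0.10) and *REL* (0.37) did not pass the test. *ATF3*, an ATF/CREB factor induced by stress, fell from 649 ± 173 to 156 ± 5.28 CPM (-2.05, adjusted p = 3.41e-05), the AP-1 subunit gene *FOSL1* from 128 ± 47.2 to 33.3 ± 3.87 CPM (-1.95, adjusted p = 4.11e-04) and *KLF4*, a factor of epidermal differentiation, from 144 ± 59.4 to 66.7 ± 0.791 CPM (-1.11, adjusted p = 0.00453). The AP-1 genes moved in both directions, with *JUN* lower (-0.92) and *JUNB* (0.75) and *FOSL2* (1.0) higher.

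**Figure D4:**
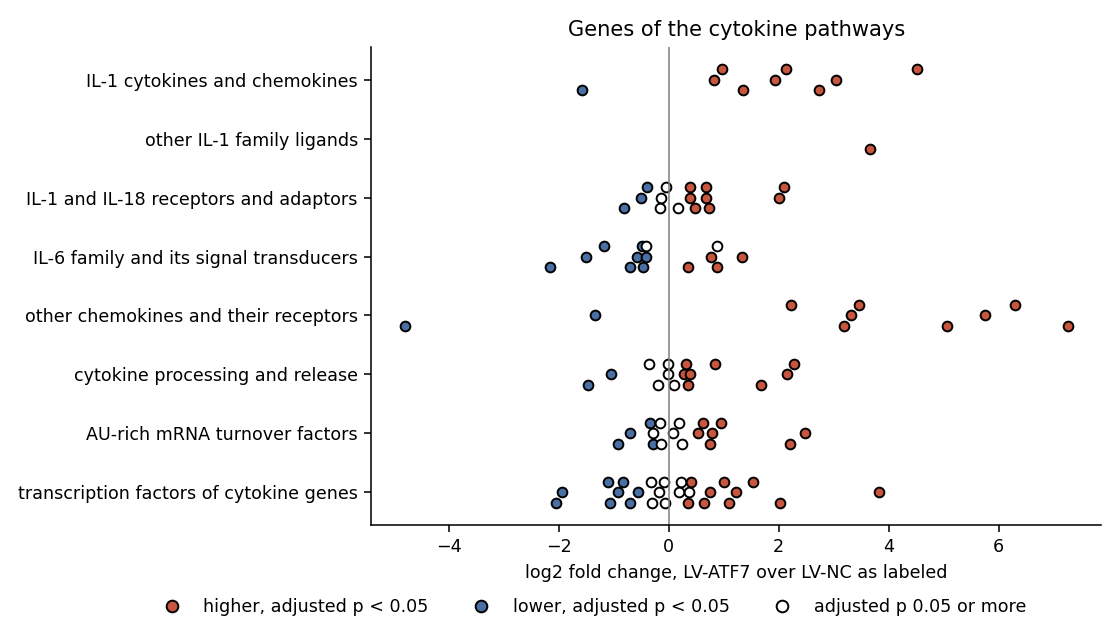
Log2 fold change (x axis) of LV-*ATF7* over LV-NC as labeled for every tested gene of each list (y axis), red for higher and blue for lower at an adjusted p below 0.05 and white for the rest. The 9 IL-1 cytokine and chemokine genes, the 10 other chemokine and receptor genes and the 1 other IL-1 family ligand gene have no white point. Of all genes tested, 67.6% passed the same threshold. The medians of these 3 lists, 1.94, 3.39 and 3.66, stand to the right of those of the remaining lists. Medians of the IL-6 family, IL-1 and IL-18 receptor, processing, turnover and transcription factor lists lie between -0.44 and 0.39.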

How the data were processed

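RNA-seq of HaCaT cells labeled LV-NC (3 libraries) or LV-*ATF7* (3 libraries) was analyzed from the deposited table. Per the labels, mRNA was enriched with oligo(dT) beads and primed with random hexamers. The submitters' processing notes name GRCh38. The aligner, counting program, annotation and strandedness are not given in the sources used here. The authors deposited read counts per gene (12499 genes), which were used here, and FPKM values, which were not. The lowest total count of a listed gene was 51 over the 6 libraries, so genes without a row may have had low counts. The deposited fold changes, log2 fold changes (the ratio between groups) and p-values are the authors' own comparison and were not used.

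Genes were filtered (filterByExpr; 12462 tested, 37 left out), TMM-scaled and compared between groups by the quasi-likelihood test of edgeR 4.0.16 in R 4.3.3 without covariates, with Benjamini-Hochberg adjustment over all genes tested and a threshold of 0.05. Libraries held 16686472 to 20562768 counts. Depth limits *CCL20* and *IL1RN* most, and replicate libraries differed beyond counting noise. The *IL1RN* ratio (pseudocount 1) was tested by exact permutation. Positions are from GENCODE 29, matched by identifier, and kb of exon counts each exonic base once. Motifs were searched in RefSeq windows. The members, lists and tests were chosen with earlier results of these data known. Named are the members, *ATF7*, the marker genes used to check the label, the 3 genes most like *CXCL1* and *IL6*, and up to 3 called genes per list and direction with the largest changes (mean of at least 50 counts, groups not overlapping). Other list genes (*IL1R1*, *STAT3*, *IL6ST*, *CXCR2*, *CXCL3*, *IL11*, *NLRP1*, *S100A13*, *ADAM10*, *RELA*, *NFKB1*, *NFKBIA*, *JUN*, *JUNB*, *FOSL2*) were named after their values were seen. So were *CXCR1*, *NFKBIE*, *NFKBIB*, *NFKBIZ*, *NFKB2*, *RELB* and *REL*. Alternatives were DESeq2 1.42.0, limma 3.58.1 voom with quality weights, other scalings and filters, a replicate block and leaving out each library. The scripts were tested on simulated data.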

Additional observations from a re-analysis of the deposited data

How the results depend on the processing

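Of 931 recomputed values, 901 kept their direction and their side of the threshold or stayed within their limit, 6 counts moved, 24 calls were lost and 0 reversed. A count within its limit could still change. Receptors and adaptors called went from 11 to 8 with scaling by library size alone, and processing and release genes from 10 to 7 without LV-*ATF7* replicate 2. The members called stayed at 9 except 8 when at least 10 counts were required in every library, which removed *CCL20* from testing, and 8 to 9 with each library left out. That count filter also left 0 of the other IL-1 family ligands and 5 of the other chemokines and receptors called. With each library left out, the receptors and adaptors called ranged from 7 to 12 and the processing and release genes from 6 to 12. Over all genes the count called ranged from 7290 to 10011, against 8429 with every library. Without LV-*ATF7* replicate 3, *IL1B* had an adjusted p of 0.0586. Without 1 library the calls of *IRAK4*, *LIF*, *ZFP36*, *IL1R1*, *IL11* and *ADAM10* were also lost, with adjusted p up to 0.0772, 0.0567, 0.0653, 0.0753, 0.0520 and 0.115. The log2 fold change of *IL1B* ranged from 1.67 to 3.47 and that of *IL1A* from 2.41 to 3.50, highest without or with less weight on LV-NC replicate 1. The *IL1RN* log2 ratio difference ranged from -1.93 to -0.09 with each library left out.

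With scaling by library size alone, the median over all genes shifted by -0.16 on the log2 scale, all 9 members kept their direction and call, and *IL1R1*, *ADAM10*, *RELA* and *NFKB1* lost theirs. The summing of *CXCL1* with *CXCL2* was not run, as *CXCL2* had no row. Summing with *CXCL3* was added after seeing the data.

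Same-numbered libraries did not deviate together (correlations 0.058, -0.021 and 0.065). The replicate numbers are those of the sample titles, and for replicate 3 the library names of the groups carry different numbers. With 3 libraries per group and LV-NC replicate 1 standing apart, these correlations cannot decide whether the numbers pair the samples. With the replicate block, 8210 genes were called against 8429 without it (8068 shared), all 9 members among them, *ADAM10* was no longer called (adjusted p = 0.0531) and the processing and release count was 8. Depth limits the low genes: *CCL20* had at most 15 counts per LV-NC library.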
